A study of Mus musculus with 4 samples.

Results

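The replication-independent histone variants were followed in whole testes of Sympk conditional knockout mice (cKO) and of wild-type mice (WT). The set holds 10 genes, chosen by symbol from the 53465 genes of the deposited expression table: H2afx, H2afz, H2afv, H2afy, H2afy2, H2afj, H3f3a, H3f3b, H1f0 and H1fx. All 10 were found, once each, and all passed the filter on low counts. RNA came from testes taken at postnatal day 18, from male mice on a mixed background of C57BL/6 and ICR, with 2 libraries from cKO mice and 2 from WT mice. In the cKO mice Sympk was removed with Stra8-Cre, a recombinase that acts in premeiotic male germ cells, so somatic cells of the testis keep the gene. The labels call the other mice wild type or control and do not say whether they carry Cre or a floxed allele. No label says that the 2 libraries of a group come from separate animals, so each p-value measures the spread between these libraries, which may be technical.

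Most histone protein is made in S phase from clustered genes without introns, whose mRNAs end in a stem-loop in place of a poly(A) tail. Replication-independent variants are made throughout the cell cycle, mostly from polyadenylated mRNAs, and replace or supplement the S-phase histones. Symplekin, the product of Sympk, is a scaffold in the cleavage machinery of both kinds of mRNA. In the testis, H2A.X is phosphorylated at meiotic DNA breaks and over the silenced sex chromosomes, macroH2A is enriched there too, and H3.3 is deposited on them during meiosis.

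Among the variants, H2afx is the gene whose 3' end resembles that of the S-phase histones, and its stem-loop is shown with that of the S-phase H2A gene with the most counts among those with a match, for comparison. Both are RNA-sense sequences written as DNA from GENCODE M21 transcripts of GRCm38, on the plus strand, with the stem-loop in capitals.
H2afx: ccacaaaGGCCCTTTTAAGGGCCaccacct
Hist2h2aa1: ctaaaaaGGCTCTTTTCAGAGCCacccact
The H2afx stem-loop lies in the 3' UTR at chr9:44335240-44335255 and begins at base 47 after the stop codon. In Hist2h2aa1 it lies at chr3:96246032-96246047 and begins at base 59. The histone 3' stem-loop consensus was searched on the sense strand alone, in the first 200 bases after the stop codon. It was found in 1 of the 10 variants, in 44 of 67 clustered S-phase histone genes (65.7%) and in 51 of 21767 protein-coding genes (0.234%). The poly(A) signal letters AATAAA or ATTAAA stood in the last 50 bases of an annotated mRNA for 9 of the 10 variants, H2afx included, against 77.5% of protein-coding genes. H2afy was the variant without them. H2afx, H2afj, H1f0 and H1fx had a single exon in the transcript with the longest coding sequence, and the other members had 4 to 9 exons.

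Some members encode the same or closely related proteins. H3f3a and H3f3b encode the identical H3.3 protein of 136 residues although 76.7% of their coding bases match. H2afz and H2afv encode the H2A.Z proteins, which differ at 3 of 128 residues. H2afy and H2afy2 encode macroH2A1 and macroH2A2, at 66.9% protein identity over the aligned length. The first 60 coding bases of H3f3a and H3f3b show how the RNAs differ under an identical protein, with capitals for the 13 bases that differ from H3f3a.
H3f3a: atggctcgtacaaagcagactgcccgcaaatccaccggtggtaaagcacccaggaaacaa
H3f3b: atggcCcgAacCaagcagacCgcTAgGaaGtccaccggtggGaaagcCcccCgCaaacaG
For the H2A.Z genes the same stretch is shown with that of Gm8203, an annotated processed pseudogene, because the reads of H2afz and Gm8203 cannot be told apart there. Capitals mark bases that differ from H2afz: 13 in H2afv and 0 in Gm8203.
H2afz: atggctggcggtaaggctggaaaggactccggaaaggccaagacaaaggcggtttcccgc
Gm8203: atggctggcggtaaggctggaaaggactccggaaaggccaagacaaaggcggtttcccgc
H2afv: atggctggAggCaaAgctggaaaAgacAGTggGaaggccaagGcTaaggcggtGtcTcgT

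Library totals ran from 32730868 to 41584389 counts. Levels are given as CPM, counts set against library size and scaled with TMM factors (the trimmed mean of gene ratios), and 1 CPM stood for 35.5 to 42.8 counts. Sympk itself measured 171.5 and 173.2 CPM in cKO, against 225.2 and 192.0 CPM in the WT libraries, and its log2 fold change of -0.28 (SE 0.141) missed the threshold, an adjusted p under 0.05 in the quasi-likelihood test of edgeR (Benjamini-Hochberg adjusted p = 0.132). It passed at -0.41 without WT replicate 2 (adjusted p = 0.0313) and at -1.44 with libraries scaled to the summed Sertoli markers (adjusted p = 3.45e-04), and was at -0.05 with library totals alone (adjusted p = 0.755). The labels do not give the deleted exons, and counts over the whole gene in a whole testis do not check a deletion in germ cells. The cell makeup of the RNA differed between the genotypes. All 8 listed pachytene and later spermatocyte markers fell, with a summed level of 103.1 to 123.9 CPM in cKO against 3983 to 4122 CPM in WT, and so did all 8 leptotene and zygotene markers (197.2 to 303.0 against 2979 to 3059 CPM). Sertoli markers rose in 11 of 12 cases (5718 to 6456 against 2638 to 2787 CPM), and spermatogonial markers rose in 6 of 9 (566.0 to 601.6 against 308.2 to 332.1 CPM). Leydig, peritubular, endothelial and macrophage markers rose in 5 of 7, 4 of 7, 7 of 7 and 6 of 7 cases. Erythrocyte markers rose in 4 of 5 (275.2 to 277.3 against 92.9 to 136.6 CPM). Skeletal muscle markers summed to 2022 and 1187 CPM in cKO against 4.92 and 609.8 CPM in WT, and mitochondrially encoded genes held 10.2% and 8.81% of the cKO counts against 4.93% and 4.01% of the WT counts. No listed marker of these cell types was at 0 in any library, and their part in the results on histone variants was not tested. In bulk tissue, fewer cells of a type and less RNA per cell cannot be told apart.

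Of the 10 variants, 6 fell and 2 rose in the cKO testes, and 2 did not pass the test. Over all 21822 genes tested, 34.3% were called lower and 29.2% higher, 63.4% in all, so a share of called members near these values is not particular to them. The linker histone gene H1fx fell the most, followed by H2afx and H3f3b, while the macroH2A2 gene H2afy2 rose the most. The median log2 fold change of the members was -0.58, against -0.02 over all genes. Levels of cKO and WT libraries did not overlap for 9 of the 10 members, all but H2afz, where 83.8% of all genes did not overlap. Summed over the 10 genes, the level was 845.3 and 843.6 CPM in cKO against 1429 and 1605 CPM in WT, a ratio of 0.557. With libraries scaled to the summed Sertoli markers, the median of all genes moved by -1.16 (log2). Of all 21822 genes, 13341 were then called lower and 470 higher. Among the members, 8 were called lower and 0 higher, H2afj and H1f0 had negative values, and H2afy2 was at 0.24 without a call. Clu alone gave 4038 of 6456 and 3447 of 5718 CPM of the marker sum in cKO. In WT it gave 1735 of 2638 and 1834 of 2787 CPM. The Sertoli markers themselves had a median of 0.14 on this scale.

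**Figure D1:**
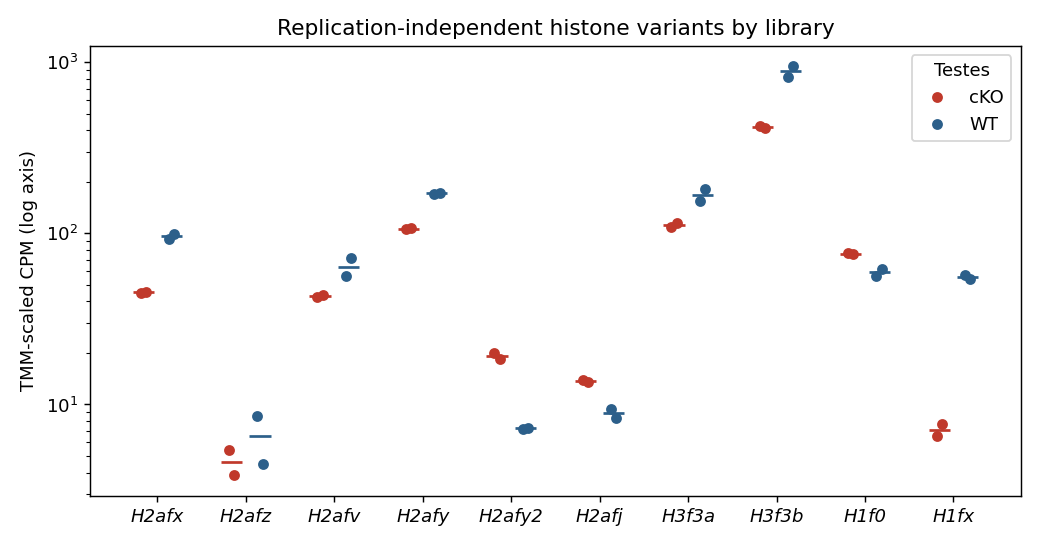
TMM-scaled CPM (log axis) of the 10 histone variant genes in each library. Points are libraries and short lines are group means (2 cKO libraries in red, 2 WT libraries in blue); the groups overlap for H2afz, H1fx stands at 6.52 and 7.67 CPM in cKO against 56.9 and 54.1 CPM in WT, and H2afy2, H2afj and H1f0 lie higher in cKO on this scale.

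H1fx and H1f0 encode linker histones, which bind the DNA between nucleosomes, and their RNAs moved differently. H1fx (ENSMUSG00000044927) is on the minus strand of chromosome 6 at 87980421 to 87981637 (GRCm38). The cKO libraries had 6.52 and 7.67 CPM, against 56.9 and 54.1 CPM in the WT libraries. Both cKO libraries lay far below both WT libraries. The means were 7.09 ± 0.815 CPM in cKO and 55.5 ± 1.97 CPM in WT (SD, n = 2 each), a log2 fold change of -2.97 (SE 0.167, adjusted p = 4.2e-05). The fall was past the threshold in each of the 14 alternatives, from -4.13 on the Sertoli scale to -2.74 with library totals alone. Its fold change stood at percentile 12.1 among all genes tested, so larger falls were common. Gm5577, an antisense gene that shares 213 exon bases with H1fx, fell as well (0.911 and 0.685 CPM in cKO against 3.88 and 3.69 CPM in WT, log2 fold change -2.24, SE 0.289, adjusted p = 1.05e-03), and without a stated strand setting the reads of the overlap cannot be assigned. H1f0 (ENSMUSG00000096210, chromosome 15, 79028212 to 79030498, plus strand), the linker histone that accumulates in cells that have stopped dividing, was at 76.5 and 75.6 CPM in cKO, against 56.7 and 62.2 CPM in WT. The cKO libraries were higher without overlap, but the log2 fold change of 0.36 (SE 0.131) missed the threshold (adjusted p = 0.0524). H1f0 passed it without WT replicate 2, at 0.40 (adjusted p = 0.0433). It also passed at 0.58 with library totals alone (adjusted p = 0.0117), at 0.38 with mitochondrial genes left out (adjusted p = 0.0411) and at 0.40 when genes averaging under 5 CPM were left out (adjusted p = 0.0254), and each of these 3 settings called 3 members higher. It was at -0.80 on the Sertoli scale (adjusted p = 2.68e-03). Per kilobase of exon, H1fx made up 12.6% and 14.6% of the linker pair in cKO against 62.9% and 59.5% in WT, a ratio that does not depend on library scaling.

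H2afx (ENSMUSG00000049932, chromosome 9, 44334694 to 44336077, plus strand) encodes the H2A variant that is phosphorylated at DNA breaks. Its level was 44.8 and 45.4 CPM in cKO, against 92.9 and 99.6 CPM in the WT libraries. The cKO libraries were nearly equal and lay below both WT libraries. The means of 45.1 ± 0.432 CPM in cKO and 96.2 ± 4.72 CPM in WT (SD, n = 2 each) gave a log2 fold change of -1.09 (SE 0.130, adjusted p = 7.47e-04), and the call held in each of the 14 alternatives. H3f3b, which has introns and no stem-loop match, had a log2 fold change of -1.08. Whether the 3' end bears on either fall was not tested. If poly(A) RNA was selected for these libraries, H2afx RNAs that end at the stem-loop are under-counted. The fall therefore describes the H2afx RNAs that these libraries captured. H2afj (ENSMUSG00000060032, chromosome 6, 136808244 to 136810074, plus strand), another H2A variant gene, went the other way on the TMM scale. Its level was 13.9 and 13.5 CPM in cKO, against 9.41 and 8.39 CPM in WT, a log2 fold change of 0.62 (SE 0.177, adjusted p = 0.0222). Leaving out cKO replicate 1 gave 0.60 (adjusted p = 0.0965), leaving out cKO replicate 2 gave 0.65 (adjusted p = 0.0765), leaving out WT replicate 2 gave 0.52 (adjusted p = 0.0646), each without a call, and on the Sertoli scale the value was -0.55 (adjusted p = 0.0541). H2A.J and H2A.X transcripts share 80.2% of their aligned coding bases and neither gene had a pseudogene copy above 95% identity.

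H3.3 RNA, from both genes together, was 530.2 and 528.3 CPM in the cKO libraries, against 972.3 and 1124 CPM in the WT libraries, a ratio of 0.505. H3f3b (ENSMUSG00000016559, chromosome 11, 116021912 to 116027962, minus strand) was the most abundant member in every library. It was at 422.0 and 413.3 CPM in cKO, against 818.1 and 943.6 CPM in WT. The cKO libraries differed little from each other and were below both WT libraries, with a log2 fold change of -1.08 (SE 0.154, adjusted p = 1.52e-03) that was past the threshold in each of the 14 alternatives. H3f3a (ENSMUSG00000060743, chromosome 1, 180800832 to 180813943, minus strand) had 108.2 and 115.0 CPM in cKO, against 154.2 and 180.7 CPM in WT. The groups did not overlap and the log2 fold change was -0.58 (SE 0.141, adjusted p = 0.0120). H3f3a had no call at -0.54 when cKO replicate 1 was left out (adjusted p = 0.0896), at -0.62 when cKO replicate 2 was left out (adjusted p = 0.0587), or at -0.36 with library totals alone (adjusted p = 0.0790). By deposited FPKM, which divides by gene length, H3f3a gave 22.7% and 24.2% of H3.3 RNA in cKO and 17.8% and 18.0% in WT, a difference of 5.58 percentage points. The shares did not overlap, and the exact two-sided permutation test gave p = 0.333, the smallest that 2 libraries against 2 allow. Reads of pseudogene copies bear on both genes. How reads that match several places were counted is not given in the labels, so the counts of a copy may be separate reads, reads placed there by chance or reads counted more than once, and sums with copies share this limit. H3f3a has 14 copies with at least 95% identity over 300 coding bases or more, holding 38.5% and 36.7% of the summed counts in cKO and 31.5% and 36.2% in WT. H3f3b has 2, and with them its level was 519.7 and 516.5 CPM in cKO against 1030 and 1236 CPM in WT. With the copies added, the log2 fold changes were -0.51 for H3f3a (adjusted p = 0.0304) and -1.13 for H3f3b (adjusted p = 1.63e-03). H3f3a-ps1 was at 0.491 and 0.384 CPM in cKO against 0.396 and 0.507 CPM in WT, and H3f3a-ps2 averaged 16.3 ± 0.367 CPM in cKO and 19.5 ± 3.27 CPM in WT (SD, n = 2 each), neither past the threshold (adjusted p = 0.941 and 0.250).

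**Figure D2:**
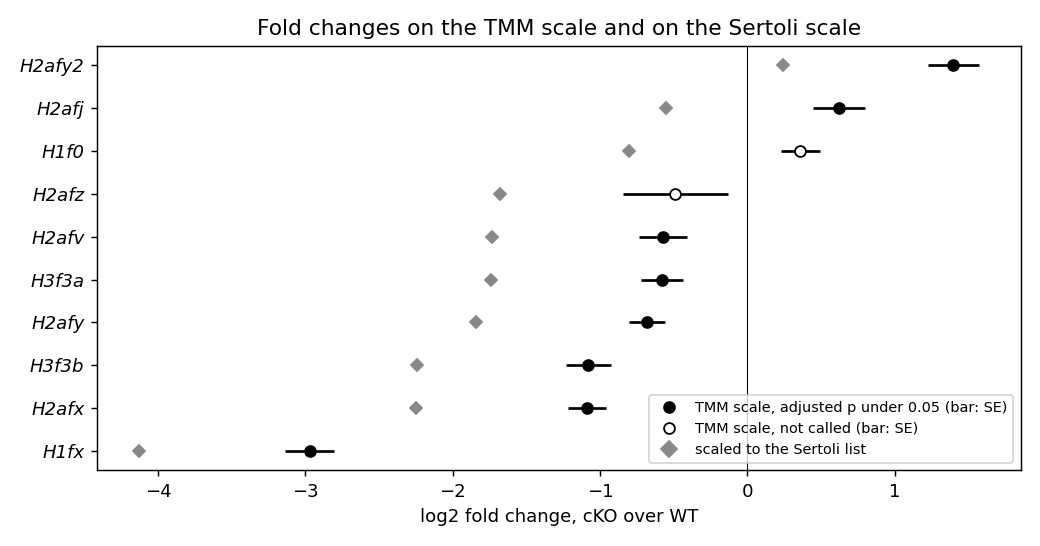
Log2 fold change (cKO over WT) of each member, with the SE as a bar on the TMM scale (filled: adjusted p under 0.05; open: not called) and with libraries scaled to the Sertoli marker list (grey diamonds, no error drawn). H1fx has the lowest value on both scales (-2.97 and -4.13); H2afj and H1f0 lie above 0 on the TMM scale and below 0 on the Sertoli scale.

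H2A.Z, which marks promoters and is exchanged into nucleosomes by dedicated remodelling complexes, comes from H2afz and H2afv. H2afv (ENSMUSG00000041126, chromosome 11, 6427229 to 6444443, minus strand) had 42.3 and 43.6 CPM in cKO, against 56.2 and 71.5 CPM in the WT libraries. The cKO libraries were lower, and the WT libraries differed from each other by more than the cKO ones. H2afv fell by 0.57 on the log2 scale (SE 0.163, adjusted p = 0.0223), and had no call at -0.55 when cKO replicate 1 was left out (adjusted p = 0.110), at -0.59 when cKO replicate 2 was left out (adjusted p = 0.0890), or at -0.35 with library totals alone (adjusted p = 0.128). H2afz (ENSMUSG00000037894, chromosome 3, 137864487 to 137866922, plus strand) had only 231 and 141 counts in cKO, against 323 and 160 counts in WT. That is 5.40 and 3.86 CPM in cKO against 8.54 and 4.50 CPM in WT, so the groups overlapped and the log2 fold change of -0.49 (SE 0.356) had no call (adjusted p = 0.264). The value depended on the WT libraries: it was 0.03 without WT replicate 1 (adjusted p = 0.926) and -0.90 without WT replicate 2 (adjusted p = 0.0452). On the Sertoli scale H2afz was called at -1.68 (adjusted p = 5.54e-03).

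The row named H2afz held a small part of the reads that match its sequence. Gm8203 at chr6:116173737-116174123 is identical to H2afz over all 384 coding bases, and it had 2218 and 1831 counts in cKO against 4412 and 5530 counts in WT. Its level of 51.8 and 50.2 CPM in cKO against 116.6 and 155.6 CPM in WT was a fall of 1.42 on the log2 scale (SE 0.175, adjusted p = 8.65e-04). Gm8203 lies within the span of Tmcc1 on the opposite strand, and Tmcc1 fell too, by 1.33 on the log2 scale (SE 0.128, adjusted p = 3.44e-04), so its reads may come from H2afz, Gm8203 or Tmcc1, and these cannot be told apart. A further copy, Gm6722, with 97.1% identity, was at 2.71 and 2.11 CPM in cKO against 4.33 and 3.43 CPM in WT. With Tmcc1 set aside, the copies held 91.0% and 93.1% of the summed counts in cKO and 93.4% and 97.2% in WT. With Gm8203 and Gm6722 added to H2afz, under the same limit on reads that match several places, the level was 59.9 and 56.1 CPM in cKO, against 129.4 and 163.4 CPM in WT. The groups then did not overlap and the log2 fold change was -1.34 (SE 0.161, adjusted p = 7.91e-04). On deposited FPKM, H2afz made up 6.01% and 4.25% of H2A.Z RNA in cKO against 7.08% and 3.06% in WT (exact two-sided permutation p = 1). With copies added, and counts divided by the annotated exon length of the member and not of the copy, H2afz made up 56.6% and 54.2% in cKO. In WT it made up 67.9% and 67.8%. Gm8203, which held most of these counts, is shorter than the 1776 bases used for H2afz, so this share depends on the length chosen. By deposited FPKM, Gm8203 alone was at 139.8 and 144.6 in cKO, against 22.7 and 25.0 for H2afv. In WT it was at 274.2 and 378.4, against 26.3 and 34.6. The length behind the FPKM of H2afz was 3880 bases, more than the 2436 bases that the gene spans. This length also exceeded the annotated exon length for H2afv (1944 against 1633 bases) and H3f3a (4971 against 3504). The same held for H3f3b (5708 against 2976) and H2afy (8746 against 6809), but not for H2afy2 (2175 for both). These lengths enter the FPKM shares of each pair.

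**Figure D3:**
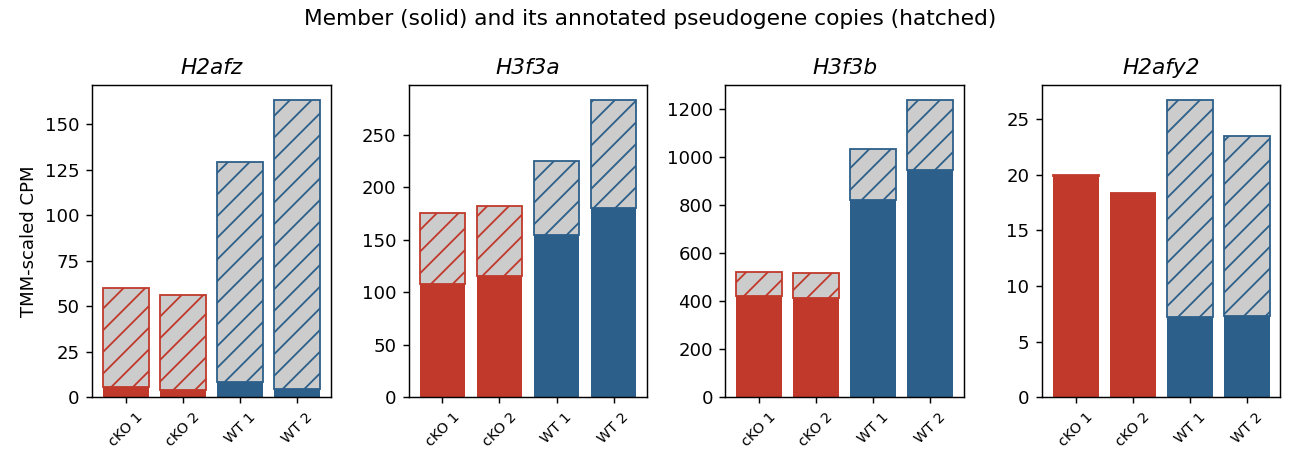
TMM-scaled CPM in each library of 4 members (solid) with the sum of their annotated pseudogene copies on top (hatched; at least 95% identity over 300 coding bases or more), each panel with its own axis from 0. For H2afz nearly all of the bar is copies; for H2afy2 the copy is present in WT libraries and at or near 0 in cKO libraries.

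The macroH2A genes moved in opposite directions on the TMM scale. MacroH2A carries a large extra domain and is found on silenced chromatin, the inactive X chromosome included. H2afy (ENSMUSG00000015937, chromosome 13, 56073619 to 56136361, minus strand) had 105.9 and 107.2 CPM in cKO, against 169.1 and 172.8 CPM in the WT libraries, lower without overlap. Its log2 fold change of -0.68 (SE 0.123, adjusted p = 3.83e-03) was past the threshold in each of the 14 alternatives. H2afy2 (ENSMUSG00000020086, chromosome 10, 61738665 to 61784147, minus strand) was at 19.9 and 18.4 CPM in cKO, against 7.21 and 7.29 CPM in WT. Both cKO libraries were above both WT libraries, by 1.40 on the log2 scale (SE 0.170, adjusted p = 8.10e-04), and the call held without any single library. On the Sertoli scale the value was 0.24 without a call (adjusted p = 0.322), while H2afy was at -1.84. By deposited FPKM, H2afy gave 56.9% and 59.2% of macroH2A RNA in cKO and 85.4% and 85.5% in WT, a difference of -27.4 percentage points (exact two-sided permutation p = 0.333, the smallest possible). The difference was -11.2 points on raw counts, with no division by length. H2afy2 shares 233 exon bases with Aifm2 on the other strand. Its copy H2afy3, annotated as a processed pseudogene, matches 95.9% of the coding sequence with 33 mismatches. H2afy3 had 2 and 0 counts in cKO against 739 and 577 counts in WT. H2afy2 itself had 853 and 671 counts in the same cKO libraries, against 273 and 259 counts in WT. The sum of H2afy2 and H2afy3 had a log2 fold change of -0.39 without a call (adjusted p = 0.0720). That value describes 2 annotated genes together and not H2afy2 alone. Shares were also taken per exon length with the counts of H2afy3 added to H2afy2 and divided by the exon length of H2afy2. H2afy then gave 62.9% and 65.1% in cKO and 66.9% and 70.1% in WT, a difference of -4.53 points. This share counts an annotated pseudogene with the macroH2A genes. Per exon length without H2afy3, the difference was -24.3 points.

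Levels of different genes were set side by side as CPM per kilobase of annotated exon. H3f3b led in both genotypes, with 140.3 ± 2.06 in cKO and 296.0 ± 29.8 in WT (SD, n = 2 each). In cKO the order then ran H1f0, H2afx, H3f3a, H2afv, H2afy, H2afy2, H2afj, H1fx and H2afz, from 37.0 to 2.61 CPM per kilobase. Only H2afx and H3f3a overlapped among neighbours in that order. In WT it ran H2afx, H3f3a, H1fx, H2afv, H1f0, H2afy, H2afj, H2afz and H2afy2, from 69.5 to 3.33 CPM per kilobase. There H3f3a overlapped with H1fx, and H2afz with both H2afj and H2afy2. H1fx thus stood in place 9 of 10 in cKO and place 4 in WT, and H1f0 in place 2 in cKO and place 6 in WT. The place of H2afz leaves out its copies. The places rest on exon length pooled over all annotated transcripts of a gene, and some change with another length. For H2afy the pooled length is 6809 bases, against 2046 bases in its transcript with the longest coding sequence. By deposited FPKM, H1fx was at 42.6 and 41.9 in WT, above H3f3a at 28.2 and 34.2. In cKO, H1f0 at 34.9 and 36.9 overlapped with H2afx at 33.8 and 36.6.

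Genes that deposit, exchange or read these histones were described from lists chosen with earlier results of these data known. Over all genes tested, 29.2% rose and 34.3% fell, 63.4% in all, with a median of -0.02 on the log2 scale. A called share near these values is not particular to a list. The H3.3 deposition factors split: of 7, 2 rose and 3 fell, and their median was 0.06. Atrx, a remodeller that works with the chaperone Daxx at repeats and heterochromatin, rose to 319.4 and 239.1 CPM in cKO, against 108.6 and 70.2 CPM in WT (log2 fold change 1.64, SE 0.254, adjusted p = 2.07e-03), and was at 0.46 without a call on the Sertoli scale (adjusted p = 0.148). Daxx fell by 0.62 (SE 0.125, adjusted p = 5.86e-03), or -0.57 without a call when cKO replicate 2 was left out (adjusted p = 0.0615). Ubn1, a subunit of the Hira complex, fell by 0.93 (SE 0.132), and the H3-H4 chaperone gene Asf1a by 0.51 (SE 0.158, adjusted p = 0.0301). Ubn2, also in this list, rose by 0.79 (SE 0.234, adjusted p = 0.0249). It was at 177.7 and 170.4 CPM in cKO, against 124.1 and 76.6 CPM in WT. For Asf1a the adjusted p was 0.120 with cKO replicate 1 left out, 0.164 with cKO replicate 2 left out, 0.0711 with WT replicate 2 left out, and 0.0664 with a replicate block. Without cKO replicate 1 the list had 1 rise, and without cKO replicate 2 it had 1 rise and 1 fall; without WT replicate 1 it had 3 rises. Hira itself was at 46.4 CPM in cKO and 44.5 CPM in WT, without a call.

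In the list of H2A.Z exchange factors, 8 of 12 fell and 1 rose, with a median of -1.29. Over all genes tested, 34.3% fell, 29.2% rose and the median was -0.02. Znhit1, a subunit of the complex that inserts H2A.Z, fell to 15.1 and 17.0 CPM in cKO, against 119.5 and 132.9 CPM in WT (log2 fold change -2.98, SE 0.152, adjusted p = 3e-05). Ruvbl2 and Dmap1, shared subunits of such complexes, each fell by 1.83 (SE 0.144 and 0.145). Anp32e, the chaperone that removes H2A.Z, rose to 123.5 and 109.7 CPM in cKO, against 48.0 and 53.1 CPM in WT (1.21, SE 0.141, adjusted p = 7.13e-04), and was at 0.04 without a call on the Sertoli scale. Without WT replicate 1 the list had 2 rises. Srcap, the ATPase of that insertion complex, averaged 113.8 CPM in cKO and 116.8 CPM in WT without a call.

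**Figure D4:**
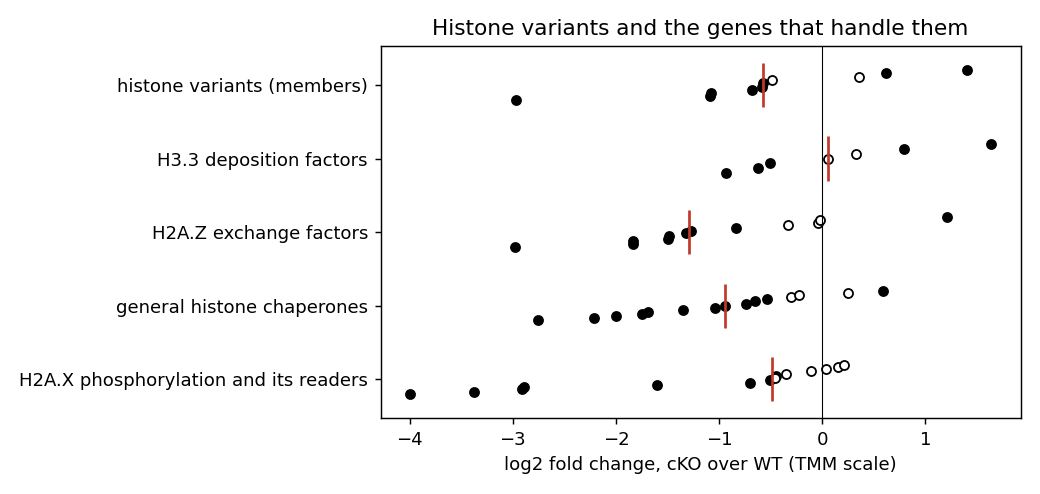
Log2 fold change (cKO over WT, TMM scale) of the 10 histone variants and of the tested genes of 4 lists that deposit, exchange or read them; filled points have an adjusted p under 0.05, open points do not, and red lines are medians. The medians are -0.58 for the variants and 0.06, -1.29, -0.94 and -0.49 for the lists from top to bottom, against -0.02 over all genes tested. Vertical offsets within a row only separate points.

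General histone chaperones fell in 11 of 15 cases and rose in 1, with a median of -0.94. Over all genes tested, 34.3% fell, 29.2% rose and the median was -0.02. Nasp, which carries H3-H4 and linker histones and has a testis form, fell to 203.3 and 212.3 CPM in cKO, against 1567 and 1249 CPM in WT (log2 fold change -2.76, SE 0.184, adjusted p = 7.7e-05). Chaf1a, of the replication-coupled assembly factor CAF-1, fell by 2.21 (SE 0.192), and Asf1b was at 19.5 and 24.02 CPM in cKO against 85.3 and 89.3 CPM in WT (adjusted p = 1.65e-04). Rbbp7 rose by 0.59 (SE 0.144, adjusted p = 0.0128). It lost its call without cKO replicate 1 (0.53, adjusted p = 0.0824), when the list had 0 rises, and was at -0.58 on the Sertoli scale. Of the kinases, adaptors and readers of H2A.X phosphorylation, 8 of 14 fell and 0 rose, with a median of -0.49. As 63.4% of all genes were called in either direction, a called share near that is not particular to this list. Hormad1 and Hormad2, axis proteins that recruit the kinase Atr to unsynapsed chromosomes, both fell. Hormad1 is also among the leptotene and zygotene markers given above, so its fall was already counted there. Hormad1 was at 12.1 and 17.9 CPM in cKO against 213.8 and 267.5 CPM in WT, and Hormad2 had a log2 fold change of -3.38 (SE 0.213). Mdc1, which binds phosphorylated H2A.X, was at 133.0 and 158.9 CPM in cKO, against 1243 and 952.9 CPM in WT, a fall of 2.91 (SE 0.205, adjusted p = 9.8e-05). Without cKO replicate 1, 5 of the list were called lower. Germ line histone variants had low levels in these libraries. The 13 listed genes summed to 1.47 and 2.25 CPM in cKO, against 6.24 and 4.70 CPM in WT. The filter on low counts was passed by 5 of them, and H2al2a, H2al2b and H2al2c had 0 counts in all libraries. Of the 5 tested, 3 were called lower and 0 higher, with a median of -1.98, where 34.3% of all genes fell. If poly(A) RNA was selected for these libraries, RNAs that end in a stem-loop are under-counted, and that was not tested.

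The genes most like the member with the largest rise and the one with the largest fall were taken from 11857 candidates, by the smallest root mean square distance between centred log2 CPM profiles over the 4 libraries. For H2afy2 these were Slc38a2, Fbxo27 and Nr5a1, at distances of 0.012, 0.016 and 0.017. For H1fx they were Prr19, Efcab2 and AI481877, at 0.032, 0.039 and 0.040. Beside H2afy2 their log2 fold changes were 1.39, 1.38 and 1.42. Beside H1fx, Prr19 and AI481877 each had -2.95, and Efcab2 was at 19.95 and 22.2 CPM in cKO against 169.6 and 168.2 CPM in WT. The 4 libraries form 2 groups, so a like difference between the genotypes is enough for a small distance.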

How the data were processed

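Paired-end libraries of testis RNA were made with a TruSeq RNA kit, per the labels' protocols. The submitters' processing notes name HISAT2 and the mouse build GRCm38. Which program counted reads, how it treated strand and reads that match several places, and its annotation: not given in the sources used here. Raw read counts were deposited by the authors per gene, with FPKM values for the same 4 libraries. FPKM values were used for shares between paralogs, and counts for all tests.

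Genes were kept with filterByExpr, scaled with TMM and tested with edgeR 4.0.16 (R 4.3.3; glmQLFit and glmQLFTest, two-sided, with genotype alone). Benjamini-Hochberg adjusted p-values cover the 21822 genes tested, and a gene was called under 0.05. The SE is the log2 fold change divided by the root of the F statistic. Replicates differed by more than sampling noise (chi-square per gene 24.2 between cKO and 51.1 between WT libraries). Copies were found with blastn 2.17.0 among GENCODE M21 transcripts. The fit was run on simulated counts with the same dispersion for every gene and few genes changed. That setting does not test the TMM scaling where most genes differ, as in these data. Alternatives used DESeq2 1.42.0, limma-voom (limma 3.58.1), other scalings and filters, a replicate block and each library left out; adding copies and exon lengths were chosen after seeing the data.

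The members and lists were chosen with earlier results of these data known. Named genes are all members, Sympk, -ps rows, up to 3 called genes per list in its main direction and 1 in the other with a mean of at least 5 CPM, and the 3 nearest profiles. Other genes (Gm8203, Gm6722, Gm5577, Tmcc1, H2afy3, Gm6485, H3f3c, Hira, Ubn2, Srcap, Aifm2, Clu) were named after their values were seen.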

Additional observations from a re-analysis of the deposited data

How the results depend on the processing

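No label ties libraries of the same number together (correlation of deviations -0.0892), and with a replicate block the counts stayed at 2 members higher and 6 lower. H1fx, H2afx, H3f3b and H2afy kept direction and call in all 14 alternatives. Leaving out each library gave 1 to 2 members higher and 4 to 7 lower. Library totals alone moved the median of all genes by 0.22 and gave 3 members higher and 4 lower, with 2 general chaperones higher and, for the H2A.X list, 1 higher and 5 lower. All genes were then 7651 higher and 6423 lower, against 6368 and 7477 on the TMM scale, and 470 and 13341 on the Sertoli scale. On the Sertoli scale 0 members were higher, and H2afj and H1f0 turned to -0.55 and -0.80 and Rbbp7 to -0.58. The lists then had 0 H3.3 factors, 0 H2A.Z factors and 0 chaperones higher. Called lower on that scale were 5 H3.3 factors, 11 H2A.Z factors, 15 chaperones, 14 H2A.X genes and 5 germ line variants. The main fit had 3 germ line variants lower. A mean of at least 5 CPM left 0 of them lower, since every listed one averages less and none was tested. Leaving out each library gave, for H3.3 factors, 1 to 3 higher and 1 to 3 lower, for H2A.Z factors 1 to 2 higher, for chaperones 0 to 1 higher, and for H2A.X genes 5 to 7 lower, against 8 with all libraries. H2afz ran from -0.90 to 0.03 over the libraries left out, turning without WT replicate 1. With pseudogene copies added, 1 member was higher, and H2afy2 and H2afy3 together were at -0.39. The H3f3a share difference was 4.61 points per exon length and 6.69 with copies; that of H2afz was -12.5 with copies; that of H2afy was -11.2 by raw counts, -24.3 per exon length and -4.53 with copies. In the shares with copies, summed counts were divided by the exon length of the member and not of the copies. Where no construction of the alternative shows it, the cause was not tested. H2afz rests on 141 to 323 counts per library.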

Other observations

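H2afy3, named after its values were seen, lies on the minus strand of chromosome 15 at 62218221 to 62219332 (GRCm38). With 2 counts in the cKO libraries together and 1316 in the WT libraries, the ratio of WT over cKO was 711.2, with an exact 95% counting interval of 196.5 to 5878 that covers counting error only. H2afy3 is annotated as a processed pseudogene, and whether its RNA is translated was not tested. Gm6485, an annotated copy of H3f3b with 98.3% identity over 363 bases, was at 92.3 and 97.2 CPM in cKO, against 200.5 and 274.0 CPM in WT (log2 fold change -1.32, SE 0.182, adjusted p = 1.33e-03). H3f3c, annotated as a pseudogene copy of H3f3a, was at 23.6 and 23.9 CPM in cKO, against 25.3 and 42.5 CPM in WT, without a call (adjusted p = 0.122).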
